A study of Homo sapiens with 18 samples.

Results

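The difference in triptolide (TPL) response between untransformed and transformed cells of the breast epithelial line MCF10A-ErSrc was measured over 8 RNA-Seq libraries of the 18 samples of the series. The line carries a v-Src oncoprotein fused to the oestrogen receptor, which is switched on by tamoxifen. Cells without tamoxifen (NT) and tamoxifen-treated cells (TAM) were each incubated with DMSO or with 1 dose of TPL for 4 h, which gave the groups NT, NT + TPL, TAM and TAM + TPL with 2 libraries each. The replicates are independent biological ones by the methods. The cells of every group are of 1 line and carry the same fusion, so the replicates do not sample different donors or lines. The quantity of interest is the interaction, (TAM + TPL minus TAM) minus (NT + TPL minus NT) on the log2 scale, which was tested for 16948 of the 23604 rows listed in the 8 libraries. A positive interaction means that TPL raised the transcript more, or lowered it less, in TAM than in NT cells. Rows with low counts were filtered out before the test. The gene lists and rules were chosen with earlier results of these data known, and most single genes were named by their p.

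TPL binds XPB, the translocase subunit of the general transcription factor TFIIH encoded by ERCC3. TFIIH opens promoter DNA for RNA polymerase II (RNAPII), and its kinase CDK7 phosphorylates the polymerase as it leaves the promoter, so the compound blocks new transcription. During such a block, mRNAs with short half-lives are lost first and long-lived mRNAs gain in share of the remaining RNA. The values are shares of each library's own total, so a rise or fall is always relative to the other transcripts of the library. In bulk libraries, fewer cells that express a gene and less RNA per cell cannot be told apart.

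The libraries held between 7461309 and 8349448 expected counts, with more rows listed in the TPL libraries (19584 to 20156) than in the DMSO libraries (18485 to 18566). The line was checked by its markers in FPKM. KRT5, KRT14, KRT17, CDH3 and LAMB3, basal epithelial genes, and the epithelial genes CDH1, EPCAM and KRT18 were detected in every library. TP63, the other basal marker, was at 13.2 and 23.6 FPKM in NT and 24.2 and 23.0 in TAM cells. With TPL it was at 0.64 and 0.28 in NT and 0.89 and 0.58 in TAM. Among the basal markers KRT5 and KRT17 were the most abundant, and LAMB3 was higher in TAM (488 and 396 FPKM) than in NT cells (266 and 286). The summed level of 6 basal markers lay between 12900 and 14600 FPKM in NT cells and 8790 and 10700 after TPL, against 3350 and 3620 in TAM cells and 1610 and 1790 after TPL, so it differed between all groups, and its part in the results was not tested. Of the stromal and blood markers, HBB was listed at 0 in every library, and COL3A1 and PDGFRB reached at most 0.05 and 0.09 FPKM. CD14 was at 10.9 and 9.18 FPKM in NT cells and 18.6 and 15.2 after TPL. In TAM cells it was at 7.57 and 6.80, and at 5.75 and 7.51 after TPL. PTPRC was at 0.58 and 0.34 FPKM in NT cells and 1.16 and 1.70 after TPL, against 0.16 and 0.71 in TAM cells and 1.27 and 2.14 after TPL. The part of CD14 and PTPRC in the results was not tested. COL1A1, a fibrillar collagen, moved with the groups, at 3.9 and 3.8 FPKM in NT cells and 6.14 and 2.2 after TPL, against 0.5 and 0.58 in TAM cells and 1.16 and 1.2 after TPL, and its part in the results was not tested. Replicates of NT + TPL differed most, with a chi-square of 31.9 per row against 9.57 to 13.8 in the other groups.

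In each state by itself TPL changed many transcripts. In NT cells 2919 rows (17.2%) rose and 3355 (19.8%) fell, and in TAM cells 2431 (14.3%) rose and 3159 (18.6%) fell (edgeR quasi-likelihood test, adjusted p of at most 0.05). This balance depended on the scaling, with 4088 rising and 2625 falling in NT and 3613 and 2298 in TAM under upper quartile scaling, and 1358 and 4381 in NT and 1626 and 3056 in TAM with GAPDH as the reference. The median response over all rows was 0.09 in NT and 0.05 in TAM on the log2 scale, and the median interaction was -0.02. When every library was scaled to equal GAPDH, the median interaction was 0.22, so a shared shift of that size cannot be told apart from the scaling.

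The interaction itself was called for 28 rows at an adjusted p of at most 0.05. TPL acted more positively in TAM cells on 15 rows (0.0885% of those tested) and more negatively on 13 (0.0767%). At an unadjusted p under 0.05 the counts were 852 rows (5.03%) and 947 rows (5.59%). With the thresholds of the study's methods (adjusted p up to 0.001, log2 difference from 1.2 upwards), 0 rows (0%) were called. All 28 had an interaction of at least 1.76 in size. Of the 28, 23 are the only row of their gene and 5 are rows of genes with several. The last row inside the threshold was TOGARAM1 at an adjusted p of 0.0492, and the first outside were SECTM1 and MYC at 0.0523. The number of calls depended on each library. It was 47 positive and 22 negative without NT + TPL replicate 1, 22 and 22 without NT + TPL replicate 2, and 1 or 2 positive and 0 to 2 negative without any 1 of the 6 NT, TAM and TAM + TPL libraries. Summing the rows that share a symbol gave 76 and 58 calls, and 24 of 27 named calls were kept there.

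The 23 genes with a single row, 12 with a positive and 11 with a negative interaction, fell into 8 patterns. Among those with a positive interaction, FST, PLEKHA7, MLKL and KRT6B fell in both states and fell less in TAM cells. LAMB3, NT5E and SLC6A9 fell in NT and passed no threshold in TAM cells. SDCBP2 and ID3 fell in NT and rose in TAM, and PLEKHA6 and METRNL rose in TAM and passed no threshold in NT. Among those with a negative interaction, ABTB3, PFKFB3, YPEL3 and GFPT2 rose in NT and passed no threshold in TAM, NEDD4L, LYPD3 and ARID5B rose in NT and fell in TAM, WWC1 and ANXA8 fell in TAM and passed no threshold in NT, and SOCS3 fell in both states and further in TAM. In 17 of the 23 the response was larger in NT than in TAM cells, against 9132 of all 16948 rows.

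**Figure D1:**
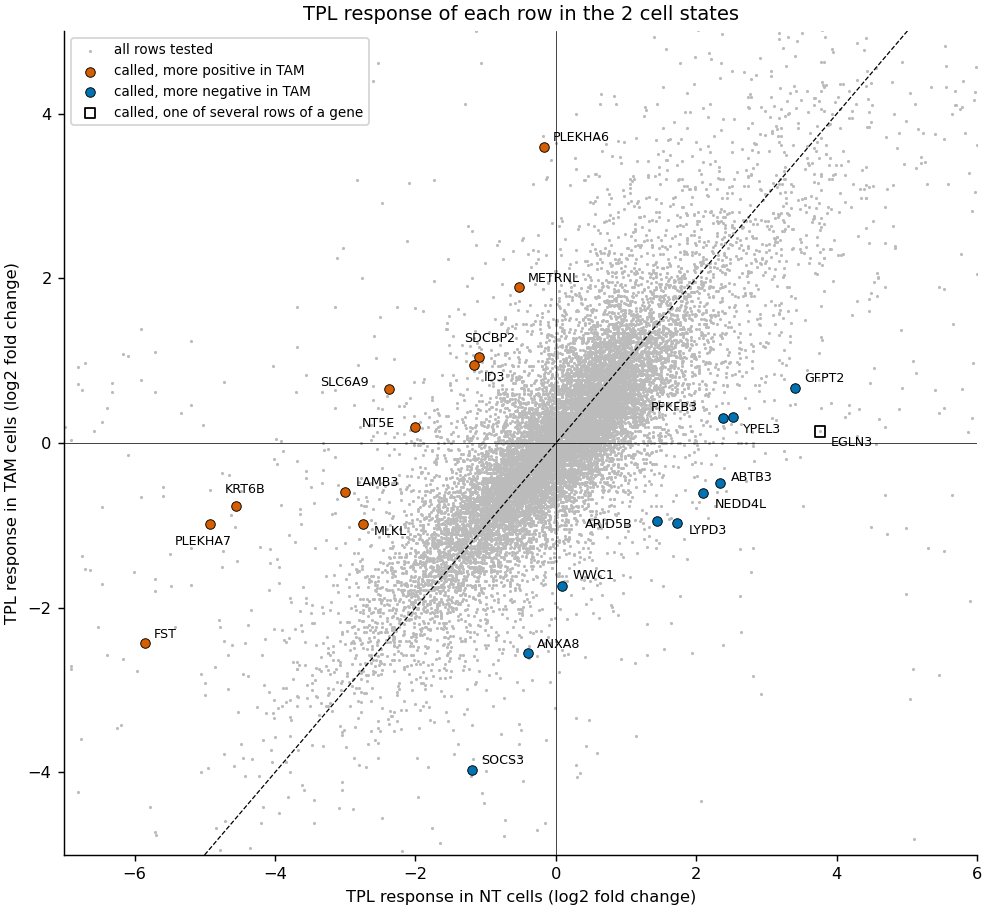
The log2 TPL response of each tested row in NT cells (horizontal axis) is plotted against that in TAM cells (vertical axis), with equal responses on the dashed line. The called genes more positive in TAM (orange) lie above the line and those more negative (blue) below it, and 847 rows lie outside the axes.

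KRT6B, a keratin of stressed and hyperproliferative epithelium, had the smallest adjusted p. Its level was 151 and 169.7 FPKM in NT cells, where TPL left 7.36 and 6.30, and 85.1 and 87.3 FPKM in TAM cells, where it left 52.8 and 52.6. TPL thus lowered it 23.6-fold in NT and 1.69-fold in TAM cells, and the groups did not overlap. The interaction was 3.80 ± 0.185 (SE; adjusted p = 0.0029). KRT6A and KRT6C are close in sequence to KRT6B, and reads may be split among them. The row of KRT6C gave an interaction of 2.05 (adjusted p = 0.083) and that of KRT6A, the most abundant of the 3, 0.17 (adjusted p = 0.875).

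LAMB3, MLKL, NT5E and FST are shown with their promoters. Each had an RNAPII peak at its TSS in NT and none in NT + TPL cells, and its RNA fell in NT. NEDD4L, ABTB3, WWC1 and EGLN3 also had a peak in NT and none in NT + TPL, but their RNA did not fall in NT, and they are not shown. KRT6B had such peaks and its RNA fell in NT, but no promoter sequence was matched to it. The windows are the 250 bases before and 50 bases after the RefSeq start (GRCh38.p14), 5′ to 3′ on the strand of the gene, at chr1:209652376-209652675 (minus strand), chr16:74700813-74701112 (minus strand), chr6:85449833-85450132 (plus strand) and chr5:53480379-53480678 (plus strand). Capitals mark matches, on either strand, to the letters searched for, which are CCAAT (itself), the cell cycle homology region or CHR (letters TTTGAA), the AP-1 motif (letters TGANTCA), the TATA box (letters TATAAA) and the E2F motif (letters TTTGGCGC or else TTTCCCGC).
LAMB3: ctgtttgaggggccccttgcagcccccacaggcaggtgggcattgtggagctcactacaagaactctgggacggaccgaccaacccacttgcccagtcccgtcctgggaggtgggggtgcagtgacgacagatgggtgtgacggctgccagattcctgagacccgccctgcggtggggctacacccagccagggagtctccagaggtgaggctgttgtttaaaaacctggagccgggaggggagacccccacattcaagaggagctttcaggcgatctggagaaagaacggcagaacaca
MLKL: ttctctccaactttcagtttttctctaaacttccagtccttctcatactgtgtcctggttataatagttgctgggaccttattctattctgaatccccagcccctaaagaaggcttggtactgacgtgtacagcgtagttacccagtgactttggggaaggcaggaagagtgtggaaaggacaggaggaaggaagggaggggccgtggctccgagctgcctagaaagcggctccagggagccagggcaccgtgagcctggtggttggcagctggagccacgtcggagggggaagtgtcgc
NT5E: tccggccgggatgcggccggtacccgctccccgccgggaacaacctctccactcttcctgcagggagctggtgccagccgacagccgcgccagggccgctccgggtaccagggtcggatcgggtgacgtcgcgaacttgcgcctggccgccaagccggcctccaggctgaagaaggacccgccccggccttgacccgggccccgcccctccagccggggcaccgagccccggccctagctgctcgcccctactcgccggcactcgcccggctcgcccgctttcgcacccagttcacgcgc
FST: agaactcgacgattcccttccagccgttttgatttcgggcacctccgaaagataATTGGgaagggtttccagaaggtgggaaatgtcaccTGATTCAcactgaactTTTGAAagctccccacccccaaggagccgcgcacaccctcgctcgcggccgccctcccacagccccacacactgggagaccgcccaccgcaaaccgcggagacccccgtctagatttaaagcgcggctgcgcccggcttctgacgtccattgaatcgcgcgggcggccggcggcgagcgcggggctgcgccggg

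The windows of LAMB3, MLKL and NT5E held none of these letters and that of FST held 1 match each to CCAAT, CHR and AP-1. The AP-1 letters allow any base in the middle, so the shares for AP-1 count every such form. The match in FST reads TGATTCA. Over the tested genes with a window, 36.5% held CCAAT, 10.4% the CHR and 5.27% AP-1. Among genes with an unadjusted interaction p under 0.05, the shares for CCAAT were 38.9% (positive interaction) and 39.6% (negative), and those for AP-1 were 5.41% and 3.99%. A match is a description of the sequence and not a binding site.

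LAMB3, which encodes the beta3 chain of the basement membrane laminin-332, was at 266 and 286 FPKM in NT cells and 42.6 and 27.0 after TPL, against 488 and 396 in TAM cells and 306 and 299 after TPL. It fell 8.0-fold in NT, while in TAM cells its log2 response was -0.59 (adjusted p = 0.0638). The interaction was 2.41 ± 0.294 (adjusted p = 0.0492).

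MLKL, the pseudokinase that permeabilises the membrane in necroptosis, was at 22.7 FPKM in both NT libraries and 3.59 and 3.42 after TPL, against 40.9 and 45.0 in TAM cells and 22.8 and 22.3 after TPL. It fell in both states, 6.71-fold in NT and 1.97-fold in TAM, and the TAM + TPL libraries were at the level of NT cells without TPL. The interaction was 1.76 ± 0.182 (adjusted p = 0.0378).

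NT5E, the ecto-nucleotidase CD73 that releases adenosine outside the cell, was at 10.98 and 14.4 FPKM in NT cells and 2.92 and 3.39 after TPL, but at 177 and 197 in TAM cells and 201 and 235 after TPL. It fell 4.00-fold in NT and its log2 response in TAM was 0.19 (adjusted p = 0.435), so the TAM level exceeded the NT level by 3.90 on the log2 scale with DMSO and by 6.09 with TPL. The interaction was 2.19 ± 0.263 (adjusted p = 0.0492).

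FST, which encodes the activin antagonist follistatin, fell 57.6-fold in NT, from 26.5 and 21.2 FPKM to 0.43 and 0.38, and 5.37-fold in TAM, from 10.1 and 13.0 to 2.11 and 2.54. PLEKHA7, a component of adherens junctions, fell 30.4-fold in NT, from 5.54 and 6.0 FPKM to 0.21 and 0.16, and 1.97-fold in TAM, from 2.08 and 1.28 to 0.90 and 0.85. The interactions were 3.42 ± 0.352 (adjusted p = 0.0378) and 3.94 ± 0.451 (adjusted p = 0.0425).

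ID3, an inhibitor of basic helix-loop-helix factors and a target of BMP signalling, fell in NT and rose in TAM cells, with 40.4 and 40.3 FPKM in NT cells and 18.6 and 17.7 after TPL, against 2.61 and 2.80 in TAM cells and 5.60 and 5.24 after TPL. Its interaction was 2.11 ± 0.233 (adjusted p = 0.0417). SDCBP2, which encodes the PDZ protein syntenin-2, fell 2.15-fold in NT, from 30.9 and 29.7 FPKM to 16.4 and 11.96, and rose 2.07-fold in TAM, from 61.3 and 57.2 to 121 and 134. SLC6A9, the glycine transporter GlyT1, fell from 11.97 and 12.6 FPKM to 2.85 and 1.87 in NT, while in TAM it went from 7.93 and 6.26 to 11.5 and 11.7, a log2 response of 0.65 (adjusted p = 0.0543).

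PLEKHA6, a pleckstrin homology domain protein, was low in a single group. It was at 35.9 and 39.0 FPKM in NT cells and 39.1 and 28.1 after TPL, against 2.73 and 1.94 in TAM cells and 33.9 and 24.8 after TPL. It rose 12.2-fold with TPL in TAM cells, and its log2 response in NT was -0.17 (adjusted p = 0.592). The interaction was 3.77 ± 0.343 (adjusted p = 0.0348). METRNL, a secreted factor, was also lowest in TAM, at 9.99 and 10.8 FPKM, and rose 3.71-fold with TPL to 38.5 and 41.5. In NT cells METRNL was at 48.5 and 35.95 FPKM and at 27.8 and 30.7 after TPL. That log2 response was -0.53 (adjusted p = 0.0569).

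**Figure D2:**
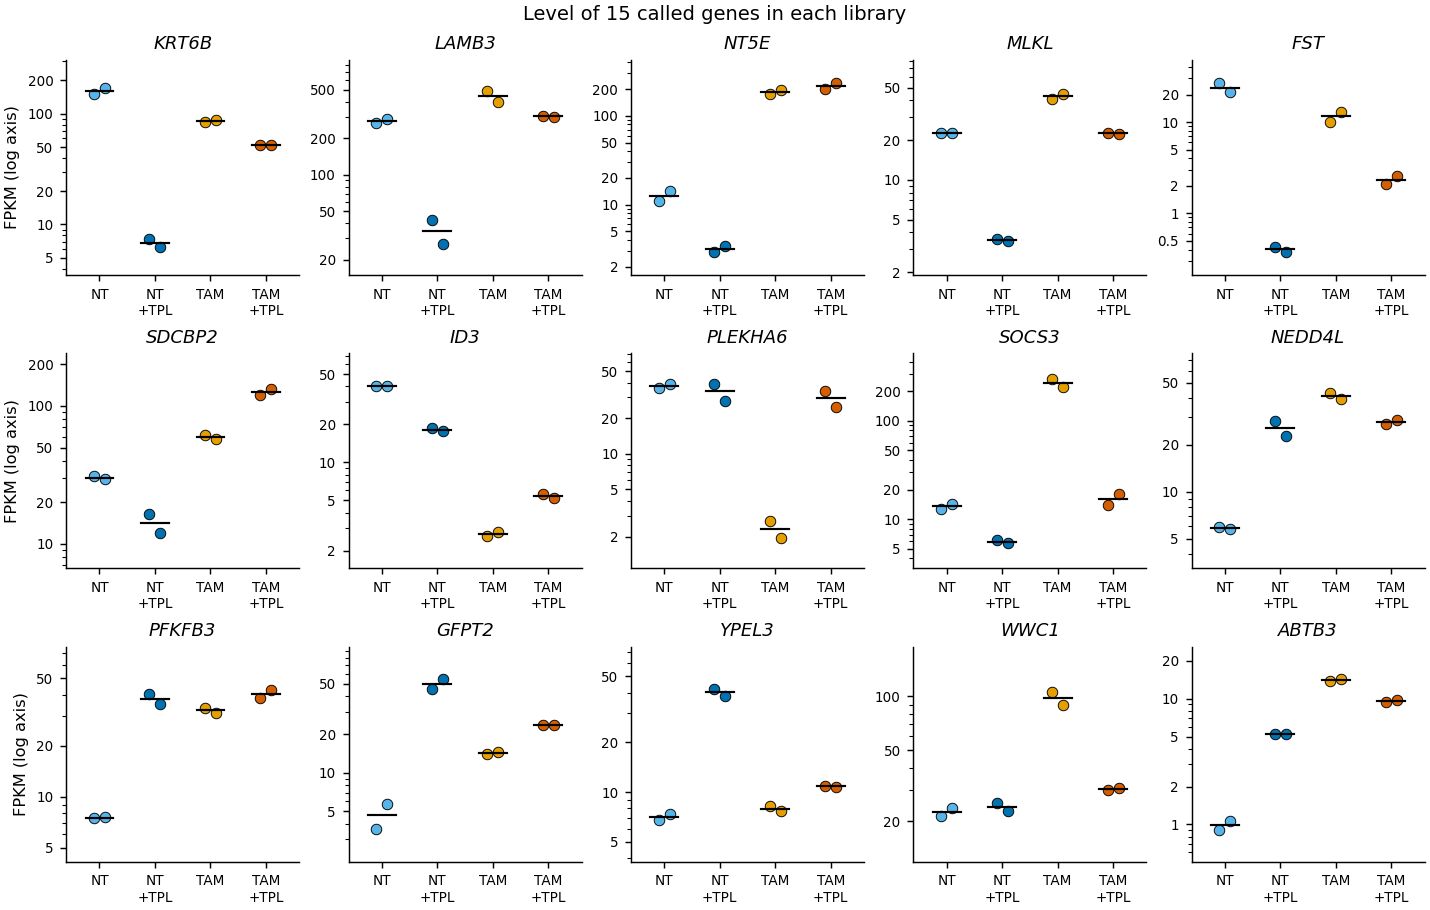
FPKM of 15 called genes in each of the 8 libraries, on log axes, with 2 points and their mean for each of NT, NT + TPL, TAM and TAM + TPL. KRT6B, LAMB3, NT5E, MLKL and FST are lowest in NT + TPL, whereas SOCS3 and WWC1 are highest in TAM without TPL.

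SOCS3 and WWC1 were high in TAM cells and lost that level with TPL. SOCS3, the feedback inhibitor of gp130 and STAT3 signalling, was at 268 and 222 FPKM in TAM and 14.01 and 18.2 in TAM + TPL, a 15.7-fold fall, and it fell 2.30-fold in NT, from 12.8 and 14.4 to 6.15 and 5.71. The interaction was -2.77 ± 0.254 (adjusted p = 0.0348). WWC1, the Hippo pathway scaffold KIBRA, was at 105 and 89.6 FPKM in TAM and 29.98 and 30.5 in TAM + TPL, and between 21.4 and 25.2 FPKM in all 4 NT and NT + TPL libraries. Its interaction was -1.82 ± 0.190 (adjusted p = 0.0378).

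ANXA8, an annexin of basal breast epithelium, fell 5.84-fold in TAM, from 31.4 and 36.8 FPKM to 5.67 and 6.38, with 199 and 205 in NT and 138 and 168 in NT + TPL. Its interaction was -2.15 ± 0.245 (adjusted p = 0.0425), and ANXA8L1, a near-identical copy that can share its reads, had -1.98 (adjusted p = 0.115).

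NEDD4L, a ubiquitin ligase of membrane channels, rose 4.30-fold in NT, from 5.92 and 5.79 FPKM to 28.5 and 22.6, and fell 1.53-fold in TAM, from 42.9 and 39.7 to 27.2 and 29.1. With TPL the libraries of the 2 states overlapped. The interaction was -2.71 ± 0.193 (adjusted p = 0.0192). LYPD3, a surface protein of the Ly6 family, and ARID5B, a chromatin regulator, had the same signs, with 3.32-fold and 2.72-fold rises in NT, 1.95-fold and 1.93-fold falls in TAM, and interactions of -2.70 and -2.40 (adjusted p = 0.0492 for each).

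Enzymes of sugar metabolism and oxygen sensing were among the genes that rose in NT and passed no threshold in TAM. PFKFB3, whose product drives glycolysis by making the activator of phosphofructokinase, rose 5.19-fold in NT, from 7.46 and 7.56 FPKM to 40.2 and 35.4, and was at 33.4 and 31.3 in TAM cells and 38.3 and 42.5 after TPL (interaction -2.08 ± 0.182, adjusted p = 0.0348). GFPT2, which feeds the hexosamine pathway, rose 10.7-fold in NT, from 3.61 and 5.70 FPKM to 45.6 and 53.9, with 13.98 and 14.7 in TAM cells and 23.8 and 23.5 after TPL. YPEL3, a growth-restraining protein, rose 5.74-fold in NT, from 6.83 and 7.37 FPKM to 42.0 and 38.3, with 8.20 and 7.68 in TAM cells and 10.9 and 10.8 after TPL. ABTB3, a BTB domain protein, rose 5.06-fold in NT, from 0.91 and 1.07 FPKM to 5.19 and 5.24, while in TAM it was at 13.8 and 14.3 and, with TPL, at 9.42 and 9.76.

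EGLN3, a prolyl hydroxylase that marks hypoxia-inducible factors for degradation, is listed in 2 rows. Its called row rose 13.5-fold in NT, from 0.23 FPKM in both libraries to 2.66 and 3.57, and was at 6.77 and 7.84 in TAM cells and 7.27 and 9.44 after TPL. Its interaction was -3.61 ± 0.415 (adjusted p = 0.0425), and with the 2 rows summed it was -2.70 (adjusted p = 0.0407).

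The other 4 called rows of genes with several rows were at 0 in 1 group, and their calls were absent at the level of the gene. One row each of MST1R, MOB1A and TOGARAM1 had 0 counts in both NT + TPL libraries, and the fall in NT was at least 43.1-fold, 380-fold and 23.5-fold, computed against 3 counts per library. The EED row was at 0 in both NT libraries, and its rise with TPL in NT was at least 13.7-fold. With all rows of the symbol summed, the interaction was 0.04 for MST1R (adjusted p = 0.978), 0.42 for MOB1A (adjusted p = 0.532), 0.03 for TOGARAM1 (adjusted p = 0.992) and -0.29 for EED (adjusted p = 0.818). For EED, a subunit of the Polycomb repressive complex, the other row was at 3.17 and 2.88 FPKM in NT, where the called row was at 0, and at 0 in all 4 TAM and TAM + TPL libraries. Reads that several transcripts of a gene share were divided among them by the authors' estimate.

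The interaction is also the change that TPL brought to the difference between TAM and NT cells, and both views rest on the same 8 libraries. Of the 23 genes, TAM and NT differed less with TPL than with DMSO in 13, against 8280 (48.9%) of all rows. In 10 (43.5%) the difference changed side, against 6443 (38%) of all rows. NEDD4L was 2.84 higher in TAM on the log2 scale with DMSO and differed by 0.12 with TPL (adjusted p = 0.673), PFKFB3 went from 2.16 to 0.08 (adjusted p = 0.804), and PLEKHA6 from -3.99 to -0.21 (adjusted p = 0.672). KRT6B moved the other way, from -0.88 to 2.92 (adjusted p = 0.000109), and ANXA8 from -2.55 to -4.69 (adjusted p = 8.3e-05).

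**Figure D3:**
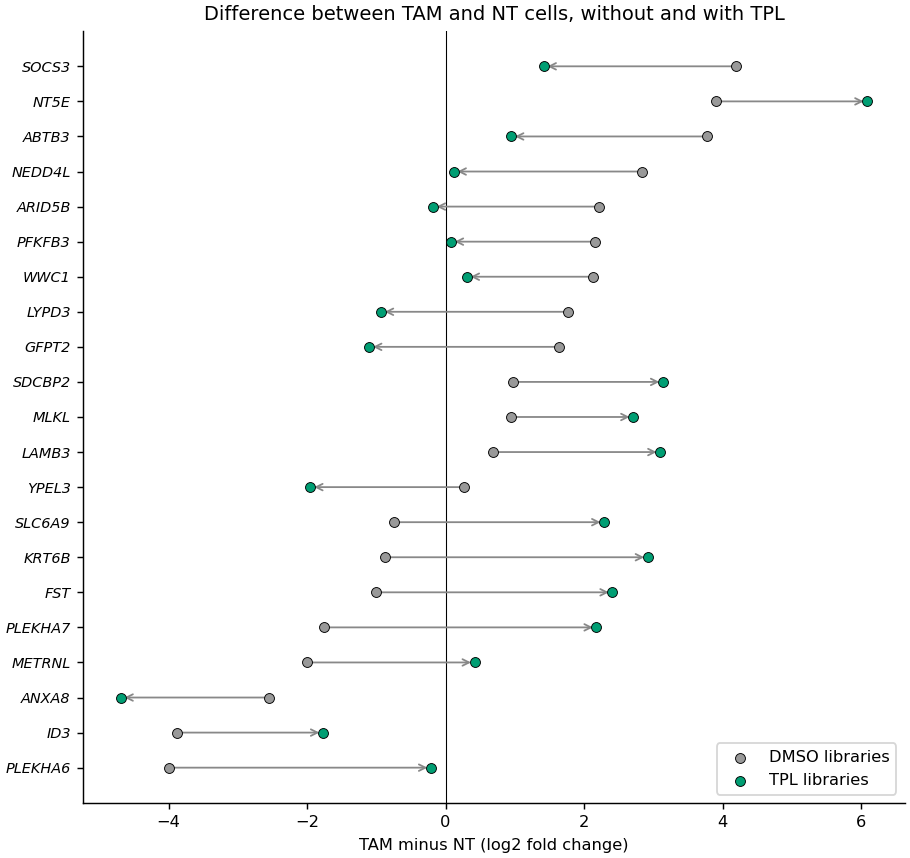
The log2 difference between TAM and NT cells (horizontal axis) is drawn for 21 called genes with a single row, with DMSO (grey) and with TPL (green), and the arrow is the interaction. In 11 genes the green point lies nearer to 0 than the grey point, and in 9 they lie on opposite sides.

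Opposite responses were counted over all rows. With a mean of at least 1 FPKM and an unadjusted interaction p under 0.05, both TPL libraries lay below both DMSO libraries in NT and above them in TAM for 149 rows, and the reverse held for 154. Without the FPKM limit the counts were 168 and 175 of the 1799 rows with such a p, and 247 (1.46%) and 266 (1.57%) of all 16948 rows. After the called genes, those with the smallest p were RIPK4, a kinase of keratinocyte differentiation, and CDR2L in the first direction, and SIPA1L2, FAM111B and PLK1 in the second, with adjusted p between 0.0523 and 0.0528. RIPK4 moved in NT from 7.31 and 9.90 FPKM to 1.99 and 2.25 and in TAM from 1.64 and 1.25 to 2.62 and 2.40. FAM111B, a protease linked to DNA replication, went from 1.48 and 2.12 to 3.61 and 3.23 in NT and from 8.04 and 7.23 to 2.52 and 2.58 in TAM. Its interaction was -2.55 ± 0.331.

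The cell cycle held the gene list with the lowest median. Of 64 genes of mitosis and G2/M, 25 (39.1%) had an unadjusted p under 0.05 with a negative and 0 with a positive interaction, and none was called at an adjusted p of at most 0.05. Of all rows, 5.59% had such a p with a negative and 5.03% with a positive interaction. The median interaction was -0.86, with a median response of 0.21 in NT and -0.58 in TAM. In NT cells 12 members (18.8%) rose and 8 (12.5%) fell, against 17.2% and 19.8% of all rows, and in TAM cells 4 (6.25%) rose and 17 (26.6%) fell, against 14.3% and 18.6%. Their median difference between TAM and NT was 1.95 with DMSO and 0.96 with TPL. The list median lay between -0.95 and -0.62 over the alternatives. Medians of this and every other list were not computed for the limma fits or for the length trend removed together with the replicate block.

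PLK1, the mitotic kinase that drives entry into and exit from mitosis, was at 4.77 and 4.99 FPKM in NT cells and 6.85 and 7.69 after TPL, against 23.6 and 20.4 in TAM cells and 8.82 and 7.03 after TPL. It fell 2.87-fold in TAM and its response in NT was 0.57 (adjusted p = 0.0573). The interaction was -2.09 ± 0.272 (adjusted p = 0.0523). AURKA, the kinase that activates PLK1, was at 13.5 and 17.2 FPKM in TAM and 4.4 and 5.33 with TPL, and between 3.04 and 4.02 in NT with and without it. PRC1, which bundles the spindle midzone, was at 13.3 and 13.1 FPKM in TAM and 7.02 and 7.28 with TPL. TOP2A, the DNA topoisomerase of chromosome condensation, rose in NT, from 2.26 and 1.97 FPKM to 5.56 and 5.26, and overlapped in TAM, at 10.1 and 12.4 without and 9.0 and 12.5 with TPL. The adjusted p of the interaction was 0.168 for AURKA, 0.191 for PRC1 and 0.156 for TOP2A.

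The promoters of PLK1, TOP2A and PRC1 are shown because CHR and CCAAT letters are common in the promoters of mitotic genes. They lie at chr16:23678639-23678938 (plus strand), chr17:40417847-40418146 (minus strand) and chr15:90994486-90994785 (minus strand) of GRCh38.p14, with capitals as above.
PLK1: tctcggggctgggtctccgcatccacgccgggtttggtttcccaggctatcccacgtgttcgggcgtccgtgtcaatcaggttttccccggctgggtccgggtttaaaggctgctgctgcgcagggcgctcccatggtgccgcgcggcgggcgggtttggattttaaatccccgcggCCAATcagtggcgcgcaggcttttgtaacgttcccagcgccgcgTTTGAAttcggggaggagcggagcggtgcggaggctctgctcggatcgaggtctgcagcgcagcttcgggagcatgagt
TOP2A: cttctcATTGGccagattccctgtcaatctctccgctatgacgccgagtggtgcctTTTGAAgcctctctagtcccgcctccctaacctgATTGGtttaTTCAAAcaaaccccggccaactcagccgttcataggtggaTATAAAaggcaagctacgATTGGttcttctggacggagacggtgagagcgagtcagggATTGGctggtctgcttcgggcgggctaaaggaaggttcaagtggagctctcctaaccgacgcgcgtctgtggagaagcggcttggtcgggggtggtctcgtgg
PRC1: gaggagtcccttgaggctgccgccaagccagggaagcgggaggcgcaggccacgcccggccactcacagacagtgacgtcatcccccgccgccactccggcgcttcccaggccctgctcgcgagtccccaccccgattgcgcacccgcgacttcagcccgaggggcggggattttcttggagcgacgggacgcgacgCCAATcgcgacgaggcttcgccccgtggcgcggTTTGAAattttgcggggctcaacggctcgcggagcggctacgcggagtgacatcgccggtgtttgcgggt

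PLK1 and PRC1 held 1 match each to CCAAT and the CHR, and TOP2A held 4 to CCAAT, 2 to the CHR and 1 to TATAAA. Of 55 mitosis genes with a window, 69.1% held the CHR and 74.5% CCAAT, against 10.4% and 36.5% of all tested genes. Among all genes with a negative interaction at an unadjusted p under 0.05 the shares were 9.78% and 39.6%.

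Genes of G1/S and DNA replication had a median interaction of -0.65. Of 59, 13 (22%) had an unadjusted p under 0.05, all negative, against 5.59% negative over all rows. RRM2, a subunit of ribonucleotide reductase, was at 5.78 FPKM in both NT libraries and 7.76 and 6.64 after TPL, against 17.1 and 19.0 in TAM cells and 8.90 and 7.27 after TPL (interaction -1.51, adjusted p = 0.0876). CDT1, which licenses origins, was at 14.8 and 10.2 FPKM in TAM and 5.15 and 6.21 with TPL (-1.67, adjusted p = 0.195). In TAM cells 0 rose and 23 (39%) fell, against 14.3% and 18.6% of all rows, while in NT cells 8 (13.6%) rose and 12 (20.3%) fell, near the 17.2% and 19.8% of all rows. The list median was -0.36 without NT + TPL replicate 2 and otherwise between -0.70 and -0.43 over the alternatives. For homologous recombination and Fanconi anaemia genes the median was -0.25. At an unadjusted p under 0.05, 1 of 33 (3.03%) was positive and 2 (6.06%) were negative, near the shares of all rows (5.03% and 5.59%).

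**Figure D4:**
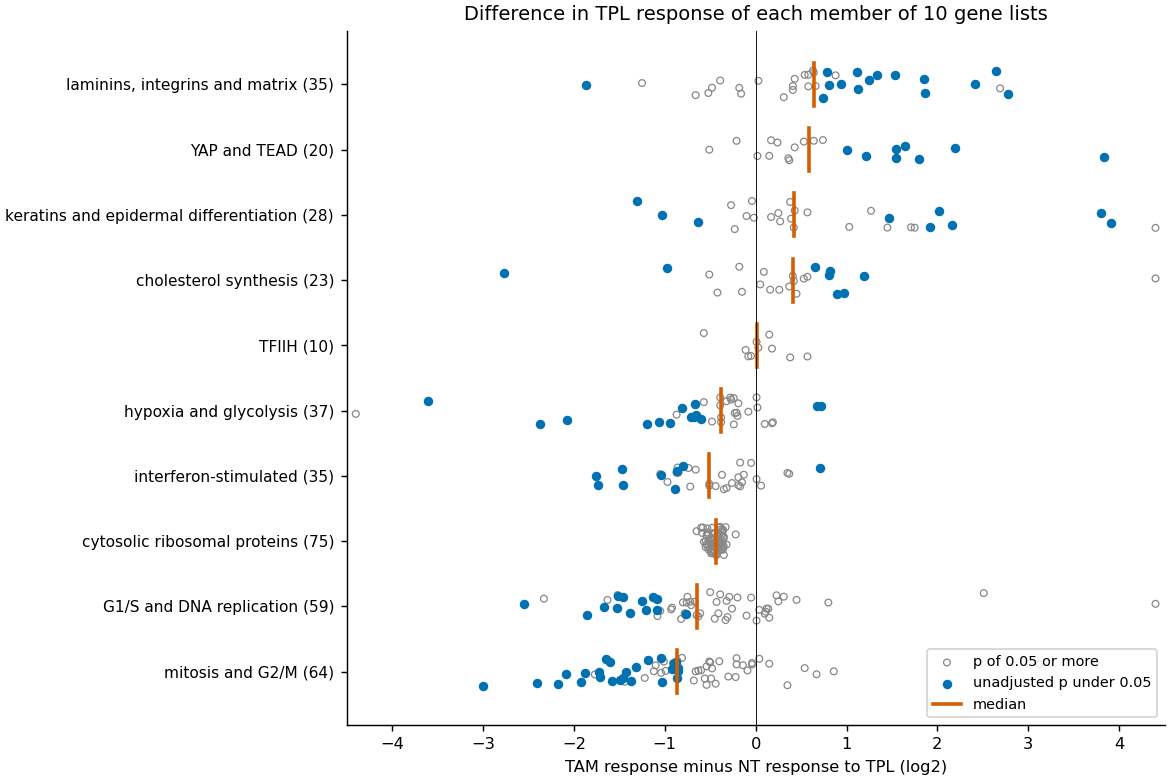
Each point is the interaction (log2, horizontal axis) of a member of 10 gene lists, filled where the unadjusted p is under 0.05, and orange bars are list medians, from -0.86 for mitosis and G2/M to 0.64 for laminins, integrins and matrix. Members beyond 4.4 in size (4 in all) are drawn near the edge.

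Adhesion genes had the highest list median in the fit of all 8 libraries, an order that did not hold with the length trend removed (keratins 0.63, adhesion 0.54), with a replicate block (YAP and TEAD 0.68, adhesion 0.61) or without certain single libraries. Of 35 laminins, integrins and matrix genes, 14 (40%) had an unadjusted p under 0.05 with a positive and 1 (LAMB1) with a negative interaction, and LAMB3 was called. Over all rows the shares at such a p were 5.03% (positive) and 5.59% (negative). The median interaction of the list was 0.64, between 0.54 and 0.93 over the alternatives. In NT cells 4 (11.4%) rose and 12 (34.3%) fell, against 17.2% and 19.8% of all rows. In TAM cells 7 (20%) rose and 3 (8.57%) fell, against 14.3% and 18.6%. ITGA5, the fibronectin receptor subunit, was at 74.9 and 76.3 FPKM in NT cells and 31.1 and 25.02 after TPL, against 139 and 127 in TAM cells and 122 and 119.8 after TPL (interaction 1.25 ± 0.185, adjusted p = 0.0843). MMP3, a matrix metalloprotease, fell 12.4-fold in NT, from 13.7 and 16.1 FPKM to 1.3 and 1.12, and 1.97-fold in TAM (2.65 ± 0.404, adjusted p = 0.0856). LAMB1, a laminin chain outside laminin-332, rose in both states, from 23.4 and 31.1 FPKM to 301 and 198 in NT and from 140.2 and 130.4 to 309.7 and 386 in TAM. These genes have long transcripts, with a median length of 5496 bases against 2871 for all rows, and the interaction rose with length over all rows (Spearman's rho 0.209 across rows). With the length trend removed the list median was 0.54.

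The YAP and TEAD list holds components and targets of the Hippo pathway. At an unadjusted p under 0.05, 8 of 20 members (40%) had a positive and 0 a negative interaction. The shares of all rows were 5.03% and 5.59%. NT5E is the called member. AMOTL2, a junctional binder of YAP, fell in NT, from 65.4 and 79.1 FPKM to 24.9 and 16.0, and lay between 11.5 and 13.3 in TAM with and without TPL (1.8, adjusted p = 0.114). CCN1, a matricellular protein, rose in TAM, from 15.6 and 16.4 FPKM to 34.3 and 36.97 (1.64, adjusted p = 0.157), and CRIM1 rose from 5.10 and 5.34 to 14.1 and 15.04 (1.55, adjusted p = 0.221). The list median was 0.58, or 0.43 with the length trend removed, 0.32 without NT replicate 2 and 0.40 to 0.83 without any other library.

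Keratins and epidermal differentiation genes were split. Of 28 members, 6 (21.4%) had a positive and 3 (10.7%) a negative interaction at an unadjusted p under 0.05. Over all rows the shares were 5.03% and 5.59%. The list median was 0.43. That median rested on single libraries, at 0.07 without TAM + TPL replicate 1 and 1.09 without TAM + TPL replicate 2, and at 1.01 without TAM replicate 2, 0.92 without NT + TPL replicate 1 and 0.65 without NT replicate 2, and it was 0.18 with at least 10 counts in every library. KRT16, a partner of the KRT6 keratins, fell in both states, from 113 and 100.3 FPKM to 19.0 and 12.7 in NT and from 58.3 and 55.2 to 38.6 and 31.3 in TAM (2.02 ± 0.281, adjusted p = 0.0641). KRT5, the keratin of basal cells, went the other way, with 6250 and 5776 FPKM in NT, 4630 and 3677 in NT + TPL, 1308 in both TAM libraries and 475 and 434 in TAM + TPL (-1.03 ± 0.186, adjusted p = 0.131). KRT7 fell in both states, from 1154 and 977 FPKM to 774 and 608 in NT and from 328 and 311 to 78.1 and 95.0 in TAM (-1.30, adjusted p = 0.131).

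Hypoxia and glycolysis genes had a median interaction of -0.38. At an unadjusted p under 0.05, 12 of 37 members (32.4%) were negative and 2 (5.41%) positive. Of all rows, 5.59% were negative and 5.03% positive at that p. Besides PFKFB3 and EGLN3, which were called, ENO2, a glycolytic enolase, rose in NT, with 0.51 and 0.41 FPKM before and 1.55 and 2.06 after TPL, and went from 5.76 and 7.40 to 5.39 and 4.89 in TAM (-2.37, adjusted p = 0.141). NDRG1, a stress-responsive gene, rose in NT, from 231 and 259 to 454 and 327, and was at 727 and 692 in TAM cells and 584 and 522 after TPL. Scaled to GAPDH, itself a glycolytic gene, the list median was -0.11 and the median of all rows 0.22. In the main fit they were -0.38 and -0.02.

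Interferon-stimulated genes had a median interaction of -0.51, with 8 of 35 (22.9%) negative and 1 positive at an unadjusted p under 0.05. The shares of all rows were 5.59% and 5.03%. IRF7, the regulator of type I interferon genes, rose in both states, from 2.16 and 2.71 FPKM to 14.2 and 12.5 in NT and from 10.4 and 8.84 to 14.8 and 16.9 in TAM (-1.76, adjusted p = 0.0997). IFIT1 was at 3.09 and 3.82 FPKM in TAM and 2.32 and 1.64 with TPL, a response of -0.85 (adjusted p = 0.0987). In NT cells 10 members (28.6%) rose and 1 (2.86%) fell, against 17.2% and 19.8% of all rows. In TAM cells 4 (11.4%) rose and 6 (17.1%) fell, near the 14.3% and 18.6% of all rows.

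Cholesterol synthesis genes had a median of 0.41, with 6 of 23 (26.1%) positive and 2 (8.70%) negative at an unadjusted p under 0.05. The shares of all rows were 5.03% and 5.59%. The median was 0.66 without NT + TPL replicate 1 and 0.20 without NT + TPL replicate 2. SQLE, the squalene epoxidase, fell in both states, from 60.1 and 70.1 FPKM to 12.6 and 8.25 in NT and from 36.1 and 40.5 to 11.7 and 12.9 in TAM (0.97, adjusted p = 0.296). HSD17B7, an enzyme of a later step, went the other way and rose in NT, from 3.36 and 2.51 FPKM to 21.8 and 28.7, with 18.6 and 15.5 in TAM cells and 23.7 and 23.5 after TPL (-2.77 ± 0.357, adjusted p = 0.0523).

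All 75 cytosolic ribosomal protein mRNAs had a negative interaction, between -0.65 and -0.22, and 0 had an unadjusted p under 0.05. In NT cells 70 (93.3%) and in TAM cells 1 (1.33%) passed the threshold for a rise, against 17.2% and 14.3% of all rows. The median response was positive in both states, at 0.87 in NT and 0.45 in TAM. RPS2 was at 4713 and 3795 FPKM in NT cells and 6555 and 7348 after TPL, against 5416 and 5882 in TAM cells and 7453 and 6536 after TPL. The list median of -0.44 moved to -0.71 without NT + TPL replicate 1 and to -0.06 without replicate 2, to -0.22 with GAPDH as the reference and to -0.19 with the length trend removed. With GAPDH as the reference the median of all rows was 0.22, against -0.02 in the main fit. These mRNAs are short, with a median length of 719 bases.

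Signalling lists were mixed. In the TGF-beta, BMP and ID list FST and ID3 were called, 3 of 27 members were positive and 3 negative at an unadjusted p under 0.05, and the median was -0.08. ID2, another inhibitor of helix-loop-helix factors, rose in both states, from 16.5 and 19.4 FPKM to 46.5 and 49.7 in NT and from 3.01 and 1.98 to 33.2 and 33.1 in TAM (2.26 ± 0.291, adjusted p = 0.0523). ID1, of the same family, had the opposite sign. It fell in TAM by 2.33 on the log2 scale and its response in NT was -0.52 (adjusted p = 0.108), an interaction of -1.8 (adjusted p = 0.131). BAMBI, a decoy receptor for TGF-beta, rose in NT, from 3.71 and 4.07 to 18.8 and 18.3, and overlapped in TAM, at 15.8 and 18.3 without and 15.1 and 20.6 with TPL (-2.23, adjusted p = 0.0523). MYC, of the immediate early list, fell 27.9-fold in NT, from 532 and 623 FPKM to 26.8 and 15.04, and 4.45-fold in TAM, from 154 and 148 to 33.99 and 36.3 (2.65 ± 0.334, adjusted p = 0.0523). That list had a median of 0.07. Of its 30 members 5 (16.7%) were positive and 2 (6.67%) negative at such a p, against 5.03% and 5.59% of all rows.

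Of 28 NF-kB and inflammatory targets, 16 (57.1%) fell in NT and 15 (53.6%) in TAM cells, against 19.8% and 18.6% of all rows. The list had median responses of -1.31 in NT and -1.47 in TAM and a median interaction of -0.03. At an unadjusted p under 0.05, 1 (3.57%) was positive and 6 (21.4%) negative. The shares of all rows were 5.03% and 5.59%. CXCL2, a neutrophil chemokine, fell from 181 and 167 FPKM to 8.34 and 3.69 in NT and from 388 and 398 to 5.40 and 4.94 in TAM (-1.43, adjusted p = 0.301). NFKBIA, the inhibitor of NF-kB, fell from 301 and 261 to 49.0 and 41.6 in NT and from 429 and 423 to 34.8 and 42.9 in TAM (-0.86, adjusted p = 0.243). In the STAT3 list SOCS3 was called and the median was 0.08, with 1 positive and 2 negative of 22.

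PMAIP1, the pro-apoptotic protein NOXA, had the smallest p of the p53 and BCL2 lists. It rose 7.44-fold in NT, from 7.69 and 7.77 FPKM to 55.02 and 60.4, and 2.72-fold in TAM, from 20.3 and 22.2 to 57.6 and 61.6, so the TPL libraries of both states overlapped (-1.45 ± 0.197, adjusted p = 0.0589). Counts here are members with an unadjusted p under 0.05, at which 5.03% of all rows were positive and 5.59% negative. The p53 list had a median of -0.14 with 4 positive (14.3%) and 3 negative (10.7%) of 28, and the BCL2 family -0.08 with 0 and 3 (20%) of 15. Medians were 0.33 for epithelial to mesenchymal transition (4 positive and 2 negative of 21, 19% and 9.52%) and 0.29 for the circadian clock (1 and 1 of 18, 5.56% each). They were 0.11 for ATF4 and the unfolded protein response (5 and 2 of 26, 19.2% and 7.69%) and 0.10 for heat shock (3 and 1 of 19, 15.8% and 5.26%). ERK feedback had -0.14 (2 and 4 of 20, 10% and 20%), and IGF binding proteins and SOX factors had -0.19 (2 and 1 of 16, 12.5% and 6.25%). The median for epithelial to mesenchymal transition was 0.82 without NT + TPL replicate 1 and 0.09 without NT + TPL replicate 2, and that for the circadian clock 0.63 without NT + TPL replicate 1, 0.17 without NT replicate 2, 0.54 without NT replicate 1 and 0.47 without TAM + TPL replicate 1. In the IGF binding protein and SOX list IGFBP3 was at 5.05 and 5.44 FPKM in NT cells and 1.58 and 1.55 after TPL, against 0.32 and 0.96 in TAM cells and 2.89 and 2.32 after TPL (3.72 ± 0.684, adjusted p = 0.139). The medians of the p53, BCL2, heat shock, ERK, IGF binding protein and SOX, NF-kB, immediate early, STAT3, TGF-beta, homologous recombination, TFIIH and RNAPII lists changed sign in at least 1 alternative. SOX9 had an interaction of 2.95 ± 0.702 (adjusted p = 0.223), with its lowest values in TAM, at 0.57 and 1.77 FPKM.

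**Figure D5:**
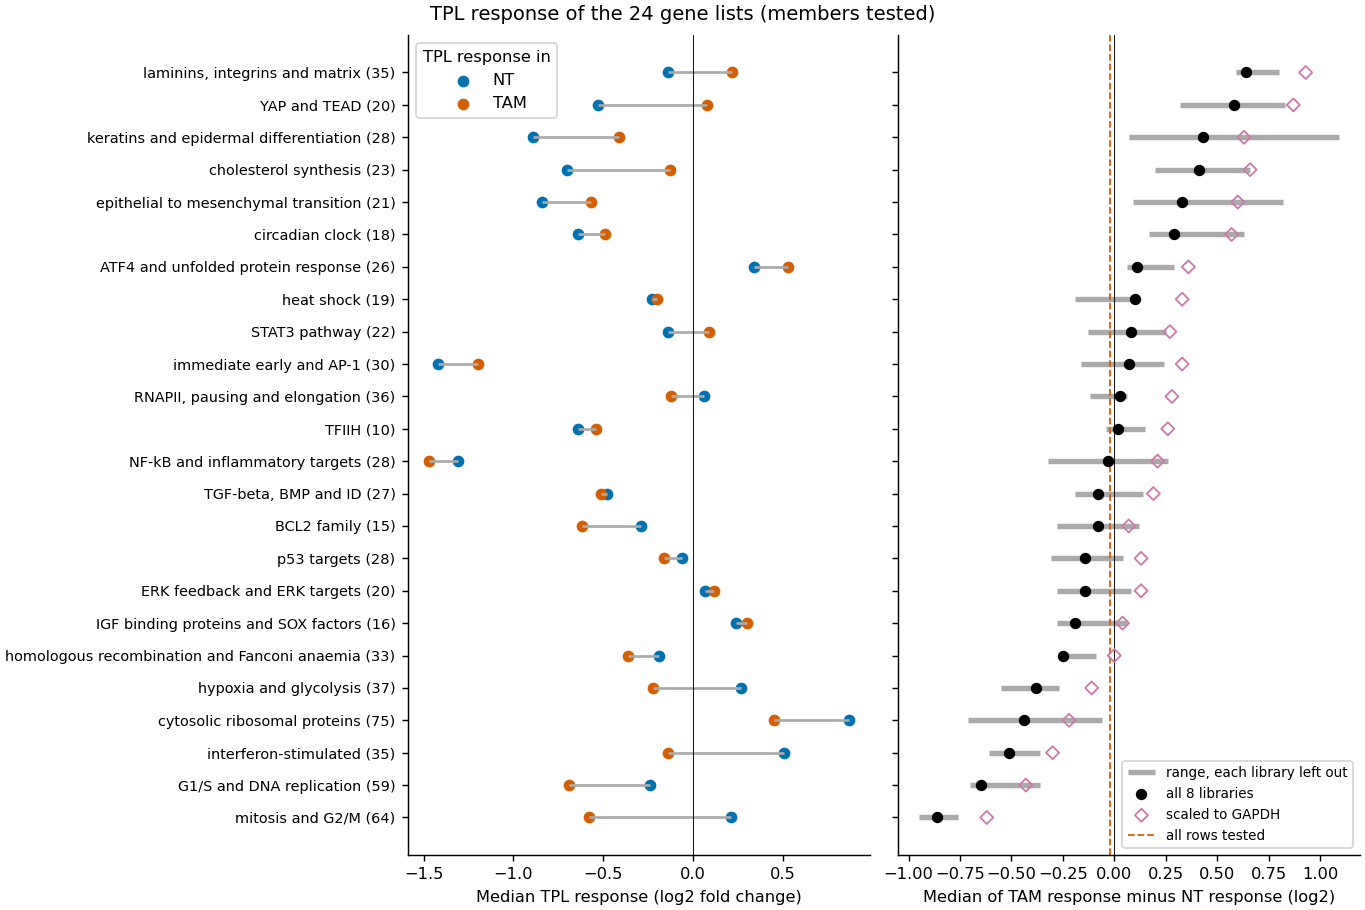
For 24 gene lists, the left panel gives the median log2 TPL response in NT and in TAM cells and the right panel the median interaction (black), its range with each library left out (grey) and its value scaled to GAPDH (diamond). Mitosis and G2/M is lowest at -0.86 and laminins, integrins and matrix highest at 0.64 with all 8 libraries, while the median of all rows is -0.02. For the diamonds the median of all rows is 0.22.

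No subunit of the target complex was called. The 10 TFIIH subunits had a median interaction of 0.02, between -0.57 and 0.57, and 0 had an unadjusted p under 0.05. ERCC3 fell in both states, from 15.2 and 18.1 FPKM to 10.7 and 9.68 in NT and from 15.3 and 14.2 to 10.4 and 10.6 in TAM (0.18 ± 0.207, adjusted p = 0.792). The values with the smallest p were 0.57 for MNAT1, -0.57 for GTF2H5 and 0.38 for GTF2H4, with adjusted p of 0.541, 0.571 and 0.661. GTF2H1, GTF2H2, GTF2H3, CCNH, ERCC2 and CDK7 lay between -0.11 and 0.15, and each changed sign in at least 1 alternative. RNAPII, pausing and elongation genes had a median of 0.03, with 0 positive and 1 negative (2.78%) of 36, against 5.03% and 5.59% of all rows. GAPDH had -0.23 ± 0.196 (adjusted p = 0.71). F2R and GFRA1 had -0.29 and -1.51 with standard errors of 0.83 and 1.46, and GFRA1 was at most 0.19 FPKM. F2R has 2 rows, and summed they gave -1.15 (adjusted p = 0.1).

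The RNAPII ChIP-Seq of the same 4 conditions was set beside the called genes. There was 1 list of peaks at TSSs for each condition, on hg19 and with no peak height, so no test was made. Peak names of the TAM list carry another cutoff than those of the other lists. The main TSS was found for 27 of the 28 called genes, all but ANXA8, and lay in a peak for 19 in NT cells and 9 after TPL, against 20 in TAM cells and 17 after TPL. Over 14779 tested genes with a TSS the shares were 63.2%, 50.5%, 55.7% and 49.5%, against 70.4%, 33.3%, 74.1% and 63.0% of the called genes. These called genes include MST1R, EED, MOB1A and TOGARAM1, whose calls were absent with the rows of the gene summed. Each of them had a peak in all 4 conditions.

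NEDD4L, ABTB3, MLKL, WWC1, EGLN3, NT5E and LAMB3 had a peak in NT, TAM and TAM + TPL and none in NT + TPL. The RNA of MLKL, NT5E and LAMB3 fell in NT, that of NEDD4L, ABTB3 and EGLN3 rose there, and WWC1 passed no threshold, so the missing peak went with RNA responses of both signs. LAMB3 starts at position 209825770 of chromosome 1 (minus strand), MLKL at 74734760 of chromosome 16 (minus strand) and NT5E at 86159801 of chromosome 6 (plus strand). KRT6B and FST had a peak in NT and TAM and in neither TPL list. PFKFB3, SOCS3, MST1R, EED, METRNL, MOB1A and TOGARAM1 had a peak in all 4 lists. ID3 had a peak in NT, NT + TPL and TAM + TPL and none in TAM, where its RNA was lowest. SDCBP2 had peaks in TAM and TAM + TPL only, YPEL3 in TAM only, and PLEKHA6, SLC6A9, PLEKHA7, GFPT2, ARID5B and LYPD3 in no list.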

How the data were processed

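Poly-A RNA of 8 libraries (NT, NT + TPL, TAM and TAM + TPL, 2 each, grouped by their labels) was sequenced. The authors aligned the reads with Bowtie2 to reference transcripts and deposited expected counts estimated with RSEM, with FPKM and transcript length, for each row. The deposited FPKM values are scaled for length and depth and are printed as levels. The RNAPII ChIP-Seq was deposited as 1 list of peak positions (hg19) for each condition. MACS 1.4.2 stands in the submitters' processing notes, and MACS2 with the same version number in the study's methods, while the aligner differs between these sources.

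Rounded expected counts entered the quasi-likelihood test of edgeR 4.0.16 (TMM scaling, low rows filtered by group, 1 fit of the 4 groups without a block) in R 4.3.3, with Benjamini-Hochberg adjustment over all 16948 rows. A row was called at an adjusted p of at most 0.05. With 2 libraries a group, the biological coefficient of variation was 0.315. Script steps were tested on simulated data. Same-numbered replicates did not deviate together. The gene lists, rules and members were chosen with earlier results of these data known. Named were the called rows with a mean of at least 1 FPKM (up to 12 per direction), rows with opposite responses in the 2 states (up to 8 per direction), the 4 members of each list with the smallest p, genes the study named for opposite responses (SOX9, GFRA1, IGFBP3, FAM111B and F2R), TFIIH and GAPDH. Some called genes are not reported here. TOGARAM1 was called but fell outside these rules, and KRT6A, KRT6C, ANXA8L1, SECTM1 and ID1 were added after their values were seen. Alternatives were other scalings, filters and tools (DESeq2 1.42.0, limma 3.58.1), a length correction, summed rows of a symbol, a replicate block and leaving out each library. Promoters came from RefSeq (12158 tested genes matched), and peak and promoter coordinates were kept in their own builds.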

Additional observations from a re-analysis of the deposited data

Results flagged for a closer look

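The difference in TPL response between TAM and NT cells was itself tested as an interaction, and the called rows are listed here for that reason. A more positive response in TAM cells was found, on the log2 scale, for KRT6B (3.80), PLEKHA6 (3.77), SLC6A9 (3.03), FST (3.42), MLKL (1.76), SDCBP2 (2.15), METRNL (2.42), ID3 (2.11), PLEKHA7 (3.94), NT5E (2.19) and LAMB3 (2.41). A more negative response was found for NEDD4L (-2.71), PFKFB3 (-2.08), SOCS3 (-2.77), ABTB3 (-2.82), WWC1 (-1.82), YPEL3 (-2.21), ANXA8 (-2.15), EGLN3 (-3.61), GFPT2 (-2.74), ARID5B (-2.40) and LYPD3 (-2.70). For the single rows of MST1R (fitted 9.18), EED (-8.93), MOB1A (13.57) and TOGARAM1 (8.0) the fitted value depends on libraries at 0 counts and is no measure of size. No group held enough libraries for a test of single outlying samples.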

How the results depend on the processing

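With 2 libraries in a group, the count of called rows depended strongly on the setting, while none of the 27 named called rows changed sign under the 21 alternative fits, and KRT6B was called in each of them (largest adjusted p 0.0476). Against 15 positive and 13 negative calls, there were 275 and 244 with DESeq2, 48 and 38 with at least 10 counts in every library, 76 and 58 with the rows of a symbol summed, 43 and 32 with limma on log2(FPKM + 1), 21 and 23 on log2(FPKM + 0.1), 22 and 23 without a filter on low counts, 20 and 18 with upper quartile scaling, 21 and 23 with the length trend removed, 2 and 0 with GAPDH as the reference, 0 and 0 with the study's thresholds, and 852 and 947 at an unadjusted p under 0.05. The replicate block gave 1 and 0 calls, and with the length trend also removed 6 and 7; the numbers did not pair the samples (correlations of deviations between -0.113 and 0.0472). Leaving out 1 library gave 1 to 47 positive and 0 to 22 negative calls: 2 and 0 without NT replicate 1, 1 and 2 without NT replicate 2, 47 and 22 without NT + TPL replicate 1, 22 and 22 without NT + TPL replicate 2, 2 and 0 without either TAM replicate, 1 and 1 without TAM + TPL replicate 1, and 1 and 2 without TAM + TPL replicate 2. The single-state counts were 1278 to 2982 (rose) and 1975 to 3514 (fell) in NT and 910 to 2990 and 1546 to 3609 in TAM with a library left out, 1358 rose in NT with GAPDH as the reference, and with upper quartile scaling 4088 rose and 2625 fell in NT and 3613 and 2298 in TAM cells.

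Signs changed with GAPDH as the reference for GTF2H1 (0.15), CCNH (0.17) and ERCC2 (0.19), with limma for SOX2 (0.03, against -4.26 with a standard error of 2.9), F2R (0.01 and 0.07) and ERCC2 (0.02 and 0.01), and with the length trend removed for CCNH (0.10, with the block 0.12). The GAPDH reference also moved the median of all rows from -0.02 to 0.22. With a library left out the interaction ranged from -2.31 to 0.43 for GFRA1, -0.30 to 0.05 for GTF2H1, -0.98 to 1.09 for F2R, -0.08 to 0.42 for GTF2H2, -0.34 to 0.25 for CCNH, -0.29 to 0.24 for ERCC2, -0.20 to 0.32 for GTF2H3 and -0.24 to 0.22 for CDK7. The cause was not tested.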
